A study of Homo sapiens with 2 samples.

Results

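The 10 genes described here encode the carriers that move proteins through nuclear pores in heat-shocked human cells. They were chosen by name out of 57736 genes in the deposited tables. They are HIKESHI, the heat stress carrier of HSP70 chaperones, the importin alpha adaptors KPNA1, KPNA2, KPNA3, KPNA4, KPNA5 and KPNA6, the import receptors KPNB1 (importin beta) and TNPO1 (transportin), and the export receptor XPO1 (CRM1). All 10 were expressed after recovery. KPNA2 was the highest per transcript length, KPNB1 followed it, and KPNA5 was the lowest.

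Proteins with a classical nuclear localization signal are bound by an importin alpha, which in turn binds importin beta and passes through the pore with it. Inside the nucleus, Ran in its GTP-bound form releases the cargo, and importin alpha is carried back to the cytoplasm by the exportin CSE1L. Transportin carries many RNA-binding proteins without an adaptor, and XPO1 exports proteins with a leucine-rich export signal. In heat-stressed cells the classical pathway is known to slow down, while Hikeshi, which does not need Ran to bind its cargo, brings HSP70 into the nucleus.

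RNA-Seq of poly(A)+ RNA was performed in HEK293T cells, a line of human embryonic kidney origin that carries the SV40 large T antigen, with a wild type genotype in the labels. Per the labels, the cells were heated to 43 °C for 20 min, returned to 37 °C for 6 h, and lysed separately for each of 2 replicates. The text of the study gives a longer heating than the labels, and the times of the labels are used here. Both libraries belonged to 1 group, and untreated cells are not analysed here, so the levels describe the state after recovery and no change with heat shock was measured. Replicate 1 held 22529828 expected counts and replicate 2 held 26890199. Of the 10 matched kidney epithelial markers, 4 were detected, KRT8, KRT18, PAX2 and CDH1, while CDH16, UMOD and AQP2 were at 0, and 3 of 4 neuronal markers were detected, led by UCHL1.

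The libraries were read at 50 bases, and the importin alpha genes are similar in sequence. A first question was therefore whether reads could be assigned to single adaptors. KPNA1, KPNA5 and KPNA6 form one subfamily, KPNA3 and KPNA4 another, and KPNA2 stands apart. Over the aligned coding bases, identity was between 72.7% and 75.5% in the 4 pairs within a subfamily. It was between 59.2% and 63.2% in the 11 pairs across subfamilies. The stretches with the longest identical runs, 26 bases for KPNA1 and KPNA5 and 23 bases for KPNA3 and KPNA4, are printed here in windows of 50 bases from the coding sequence of the GRCh37 reference, with differing bases in capitals.
KPNA1: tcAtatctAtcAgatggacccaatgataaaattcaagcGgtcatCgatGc
KPNA5: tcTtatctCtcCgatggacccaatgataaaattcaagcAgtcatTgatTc
KPNA3: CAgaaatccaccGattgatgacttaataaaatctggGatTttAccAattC
KPNA4: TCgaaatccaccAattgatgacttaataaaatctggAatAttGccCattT

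The KPNA1 window lies at chr3:122168454-122168503 on the minus strand and the KPNA5 window at chr6:117043370-117043419 on the plus strand. The KPNA3 window lies at chr13:50306535-50306584 and the KPNA4 window at chr3:160249278-160249327, both on the minus strand. Over these windows, a read of full length met 6 differing bases in the first pair and 8 in the second. No 50-base sequence was shared between the coding sequences of any 2 of the 6 adaptors. With genes outside the 6, reference transcripts of KPNA1 shared 14.9% of their 50-base sequences, those of KPNA5 11.1%, KPNA6 9.10%, KPNA2 8.15% and KPNA4 3.56%. KPNA3 shared none. The spread of the expected counts that the quantifier attached to read sharing was small, at most 2.07% of the count, for KPNA1 in replicate 1. For KPNA3 and KPNA5 it was 0.

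The level of each gene was given as TPM (counts per estimated transcript length, scaled to the same total in each library), which allows genes to be set against each other. The importin alpha adaptors spanned the whole range. KPNA2 (chr17:66031752-66043480, plus strand, GRCh37), the adaptor best known from proliferating cells, had 539.9 TPM in replicate 1 and 511 TPM in replicate 2, or 526 ± 20.2 (SD, n = 2). Its mean lay above that of 98.7% of the 12367 detected protein-coding genes. No other adaptor came near it.

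KPNA4 (chr3:160212795-160283359, minus strand) had 46.55 and 48.35 TPM in replicates 1 and 2. KPNA6 (chr1:32573657-32642164, plus strand) had 36.95 and 40.59 TPM. KPNA1 (chr3:122140749-122233792, minus strand) had 26.9 and 30.8 TPM. These 3 adaptors kept that order in both libraries and lay between KPNA2 and the lowest adaptors. KPNA3 (chr13:50273456-50366818, minus strand), which is close in sequence to KPNA4, had 17.3 and 21.7 TPM. KPNA5 (chr6:117002350-117063030, plus strand) had 8.13 and 15.25 TPM, the widest relative gap of the 10 genes. It rested on 208 counts in replicate 1, for which the counting error alone was 6.93%. KPNA7, the remaining human importin alpha, which is known from oocytes and early embryos, had 0 counts in both libraries. A count of 0 allows up to 3 counts, or 0.133 CPM (counts scaled to the library total) in replicate 1 and 0.112 in replicate 2 (counting error only).

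The import receptor KPNB1 (chr17:45726842-45762871, plus strand) had 255 TPM in replicate 1 and 270.1 TPM in replicate 2. TNPO1 (chr5:72112139-72212560, plus strand) had 118 and 165 TPM. The export receptor XPO1 (chr2:61703167-61765876, minus strand) had 84.7 and 120.1 TPM. The 3 receptors were therefore above all adaptors except KPNA2 in TPM, and TNPO1 and XPO1 were both higher in replicate 2. HIKESHI (chr11:86013253-86056985, plus strand) had 26.0 and 23.5 TPM, or 24.7 ± 1.725 (SD, n = 2), from 400.6 and 468 counts. It stood near the middle of the transcriptome, above 58.5% of detected protein-coding genes.

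**Figure D1:**
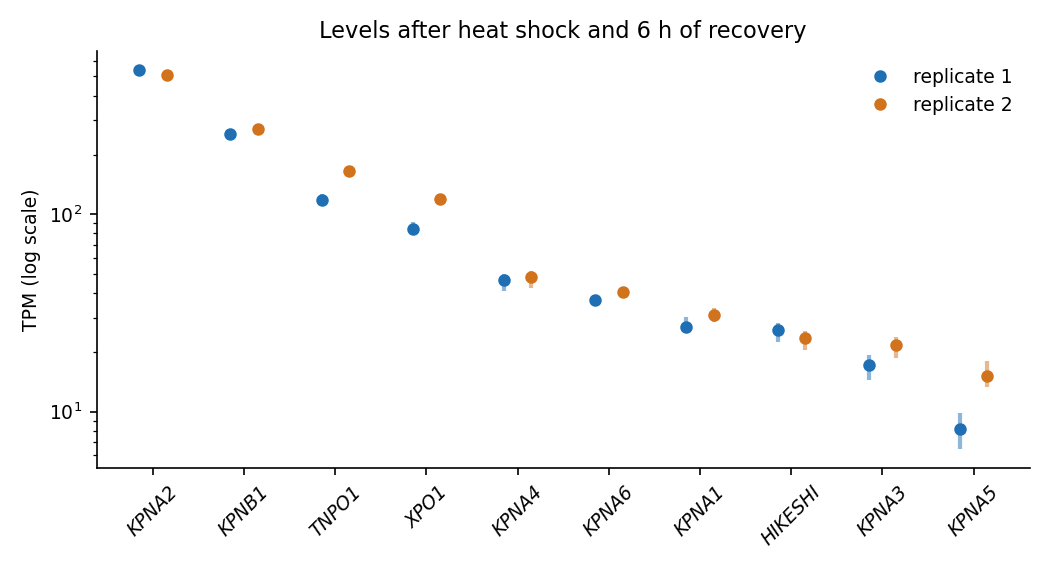
TPM of the 10 genes on a log axis in replicate 1 (blue) and replicate 2 (orange), ordered by mean; bars are the 95% credibility bounds deposited for each library. KPNA2 and KPNB1 lie above 250 TPM, and KPNA5 shows the widest relative gap between the libraries, 8.13 against 15.25 TPM.

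In the order KPNA2, KPNB1, TNPO1, XPO1, KPNA4, KPNA6, KPNA1, HIKESHI, KPNA3 and KPNA5, the ranges over the libraries did not overlap for 8 of the 9 neighbouring pairs. TNPO1 and XPO1 were the exception. The credibility bounds of the quantifier also bear on the order. They overlapped in 1 of the libraries between KPNA1 and HIKESHI and between HIKESHI and KPNA3, so these 3 genes are not firmly ordered. The mean TPM of KPNA2 was 2.00 times that of KPNB1. With 2 libraries, the ranges are a description and not a test.

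The next question was which adaptors the cells had available. Among the 6 detected importin alpha genes, KPNA2 made up 79.9% of the summed TPM in replicate 1 and 76.55% in replicate 2, or 78.2 ± 2.37% (SD, n = 2). KPNA1, KPNA5 and KPNA6 together made up 11.8 ± 1.64%, and KPNA3 with KPNA4 made up 9.97 ± 0.735%. The single shares ran from 7.06 ± 0.247% for KPNA4 down to 1.74 ± 0.764% for KPNA5. Summed over the 6 adaptors, importin alpha reached 676 and 668 TPM, which was 2.65 and 2.47 times KPNB1. These are transcript ratios, and protein was not measured.

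**Figure D2:**
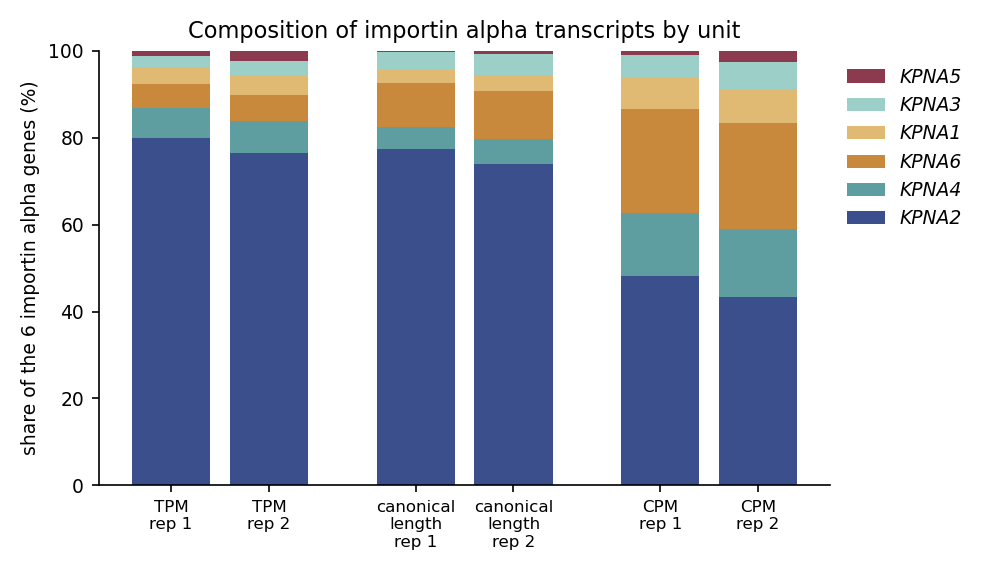
Share of each importin alpha gene (%, stacked to 100) in each library, from TPM, from counts per canonical transcript length, and from CPM, which are not per length. KPNA2 holds 73.9% to 79.9% of the sum on both scales per length and 43.4% to 48.2% in CPM.

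The share of KPNA2 depended on the transcript length by which counts were divided. The deposited length of a gene is a mean over its isoforms, weighted by their estimated abundance. For KPNA2 this length was 1051 bases in replicate 1 and 1084 in replicate 2. Its canonical reference transcript has 1977 bases, which is also the shortest of its 4 coding isoforms in the reference, and only non-coding isoforms are shorter. With the reference lengths, a mean under 1977 bases needs weight on these non-coding isoforms. Whether they are present in the cells was not tested.

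Short estimated lengths were not particular to KPNA2. The estimate was below the canonical length in both libraries for 9 of the 10 genes, and for 87.8% of 12048 detected genes with several isoforms. The exception was KPNA6, at 7349 and 7378 bases against 7355. For KPNA5 it was 1452 and 2143 bases against 11288, and for TNPO1 it was 1794 and 1958 against 8489. When counts were divided by the canonical lengths instead, KPNA5 fell to 0.227 and TNPO1 to 0.300 of their deposited TPM. The canonical lengths come from a later release than the study's gene list. The reference transcripts of KPNA5 shared 11.1% of their 50-base sequences with other genes, yet its posterior SD was 0 in both libraries. Whether the transcripts used in quantification held all 11288 bases was not tested, so the value for KPNA5 may be too low. HIKESHI, with 894 and 1008 bases against 1108, moved little, to 28.9 ± 0.762 (SD, n = 2). On that scale the order was KPNA2, KPNB1, XPO1, KPNA6, TNPO1, HIKESHI, KPNA4, KPNA3, KPNA1 and KPNA5, with 382 for KPNA2 and 219 for KPNB1.

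**Figure D3:**
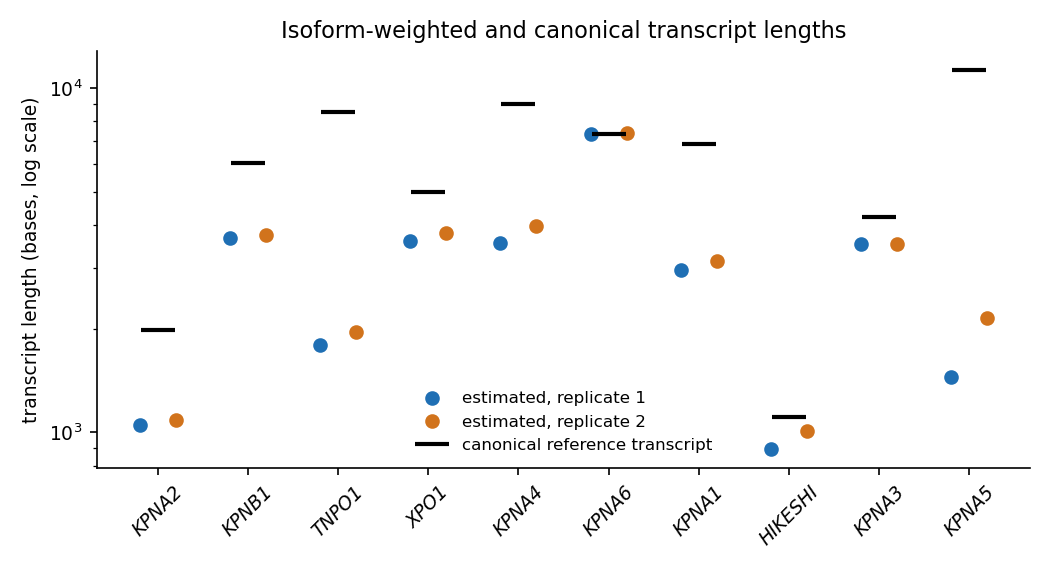
Estimated transcript length in replicate 1 (blue) and replicate 2 (orange) beside the length of the canonical reference transcript (black bars), in bases on a log axis. Only KPNA6 sits at its canonical length, and KPNA5 and TNPO1 lie farthest below theirs.

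The estimated length was greater in replicate 2 for 9 of the 10 genes, all but KPNA3. Among 12259 detected genes with several isoforms, 50.97% were longer in replicate 2, and the median length ratio was 1.001. For KPNA5 the length ratio was 1.48, so its gap in TPM, 1.88 times, was narrower than its gap in counts. In CPM, which ignore length, KPNB1 led with 757 ± 16.7 and KPNA2 came next with 424 ± 20.7 (SD, n = 2). HIKESHI, a short transcript, was the ninth with 17.6 ± 0.255.

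HIKESHI and KPNA2 each have a partial copy, near-identical where it aligns, that held reads of its own. HIKESHIP2, a processed pseudogene at chr19:10952515-10952926 on the plus strand, lies within the C19orf38 locus. It matched the HIKESHI transcript at 98.05% of 411 aligned bases, and 163 of its 363 sequences of 50 bases were also in HIKESHI. It was listed at 44.4 counts in replicate 1 and 46.6 in replicate 2, which was 11.1% and 9.94% of the HIKESHI counts. These windows come from the coding sequence of HIKESHI, where it spans an intron, and from HIKESHIP2 at chr19:10952860-10952909. They show where the copies differ most within the aligned coding sequence, with differing bases in capitals.
HIKESHI: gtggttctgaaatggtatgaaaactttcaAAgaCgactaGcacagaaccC
HIKESHIP2: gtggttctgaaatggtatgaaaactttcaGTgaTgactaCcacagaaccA

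A read over this window met 5 differing bases, whereas the longest identical run of the pair was 155 bases, within which reads cannot be told apart. The quantifier gave HIKESHIP2 a posterior SD of 7.23% and 6.62% of its count and HIKESHI one of 0.804% and 0.660%. Because the pseudogene is short, its 6.69 and 6.16 TPM came to 26.0% of the TPM of HIKESHI. If all its counts belonged to HIKESHI, the count of HIKESHI would be higher by 11.1% and 9.94%. HIKESHIP1 and HIKESHIP3 had at most 1 count per library.

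KPNA2P3, a transcribed pseudogene at chr17:62746036-62754721 on the minus strand, was listed at 109 and 163 counts and at 7.47 and 9.82 TPM. Its mean TPM was 1.65% of that of KPNA2, so the level of KPNA2 hardly rested on it. The readthrough gene ARHGAP27P1-BPTFP1-KPNA2P3, which overlaps it, had 2.64 and 2.83 TPM. KPNA2P3 aligned to the KPNA2 transcript over 636 of its 848 bases, at 98.1% identity. Within the aligned coding sequence, the next pair of windows shows where KPNA2 (chr17:66041966-66042015) and KPNA2P3 differ most, with 3 differing bases in capitals.
KPNA2: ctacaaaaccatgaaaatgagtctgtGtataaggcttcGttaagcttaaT
KPNA2P3: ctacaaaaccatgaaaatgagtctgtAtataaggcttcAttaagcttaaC

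KPNA4P1 had 2.01 and 8.01 counts, under 1% of the counts of KPNA4, and was the only other such copy with 10 or more counts over both libraries. Of the 12 genes named after members of the group, 4 were at 0 in both libraries. KPNA1 shared 14.8% of its 50-base sequences with WDR5B-DT, a non-coding gene with 364 and 519 counts. No source used here states if counting took account of strand, and overlapping and antisense genes remain uncertain.

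The libraries were next compared with each other, to ask whether the gaps in level exceeded counting noise. The counts were compared by an exact two-sided binomial test for each gene, adjusted over 19714 genes by the method of Benjamini and Hochberg. Such a test compares 2 libraries and not conditions. At an adjusted p under 0.05, 43.1% of all tested genes differed between the libraries, and 72.6% of those with 1000 or more counts did. Of the 10 genes, 7 differed, 6 of them higher in replicate 2 and 1 higher in replicate 1, against 20.9% and 22.2% of all genes. Among genes with 1000 or more counts, 29.6% were higher in replicate 2. The total of 7 was close to the share of well-counted genes, while the 6 higher in replicate 2 were above it. HIKESHI and KPNA5, with 869 and 871 counts over both libraries, fall short of that depth, and KPNA5 is one of the 6. The comparison is therefore not fully at like depth.

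An adjusted p under 0.05 with a log2 ratio of at least 1 in size was found for 5.51% of all tested genes and for 1 of the 10. This was KPNA5, with a log2 ratio of replicate 2 over replicate 1 of 1.37 (95% exact interval 1.14 to 1.60, counting error only, adjusted p = 5.63e-36). TNPO1 and XPO1 followed with 0.50 and 0.46, and both passed the same exact test. KPNA3 at 0.21, KPNA1 at 0.17 and KPNA4 at 0.11 passed it with smaller ratios. KPNA2 was the only one higher in replicate 1, at -0.15 (adjusted p = 1.19e-12, exact test). For 3 genes no difference was found. The interval was -0.28 to 0.12 for HIKESHI (log2 ratio -0.08, adjusted p = 0.566, exact test), and it was narrower for KPNA6, -0.03 to 0.08, and for KPNB1, -0.03 to 0.03. KPNB1 and KPNA6 did pass the exact test when scaled to library totals in place of TMM, at log2 ratios of 0.045 and 0.07. Under an assumed biological coefficient of variation of 0.1, KPNA5 alone still differed (edgeR exact test). The share of all genes that differed under this assumption was not computed, so this count has no background beside it.

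GC content moved with these ratios. Over 13539 genes, the median log2 ratio fell from 0.92 in the class lowest in GC content to -0.30 in the highest. The 10 genes are low in GC, with a median of 39.9% against 49.2% over all tested genes. KPNA5, at 35.9%, TNPO1, at 37.1%, and XPO1, at 37.4%, are the lowest of them and also had the largest ratios. With the trend removed, the ratio of TNPO1 turned to -0.26 (adjusted p = 2.54e-17, exact test), and that of XPO1 turned to -0.26 as well. KPNA3, at -0.41, and KPNA4, at -0.39, also changed sign. GC content was taken over all reference transcripts of a gene, and the removal depends on that choice. In the coding sequence alone it was higher for TNPO1, at 41.7%, for KPNA3, at 41.6%, for KPNA4, at 40.4%, and for HIKESHI, at 42.8%. For XPO1 it was 37.1%, close to the value used. Removal by coding GC content was not tested.

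KPNA5 stayed higher in replicate 2 after removal, at 0.45 (adjusted p = 0.00046, exact test). That p-value covers counting error only. In the class lowest in GC content, which holds KPNA5, the quartiles of the ratio before removal were 0.60 and 1.225. KPNA5, at 1.37, lay not far above the upper one, and whether its ratio is unusual for such genes was not tested. KPNA1 no longer differed (0.02, adjusted p = 0.843, exact test). HIKESHI, with a GC content of 40.5%, lay below its class and differed only after removal, at -0.48 (adjusted p = 1.14e-05, exact test). KPNB1 and KPNA6, whose GC content of 45.9% and 47.9% is where the trend crosses 0, stayed without a difference. After removal 7 of the 10 genes differed, 1 higher in replicate 2 and 6 higher in replicate 1, against 26.8% of all genes, 13.5% and 13.3% in the 2 directions. No share among genes with 1000 or more counts was computed after removal, so a comparison at like depth is lacking. Of 59 tested nuclear transport genes outside the 10, described below, 40 differed after removal, 8 higher in replicate 2 and 32 higher in replicate 1. The directions of TNPO1, XPO1, KPNA3 and KPNA4 thus depend on whether the GC trend is left in. Its cause was not tested.

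**Figure D4:**
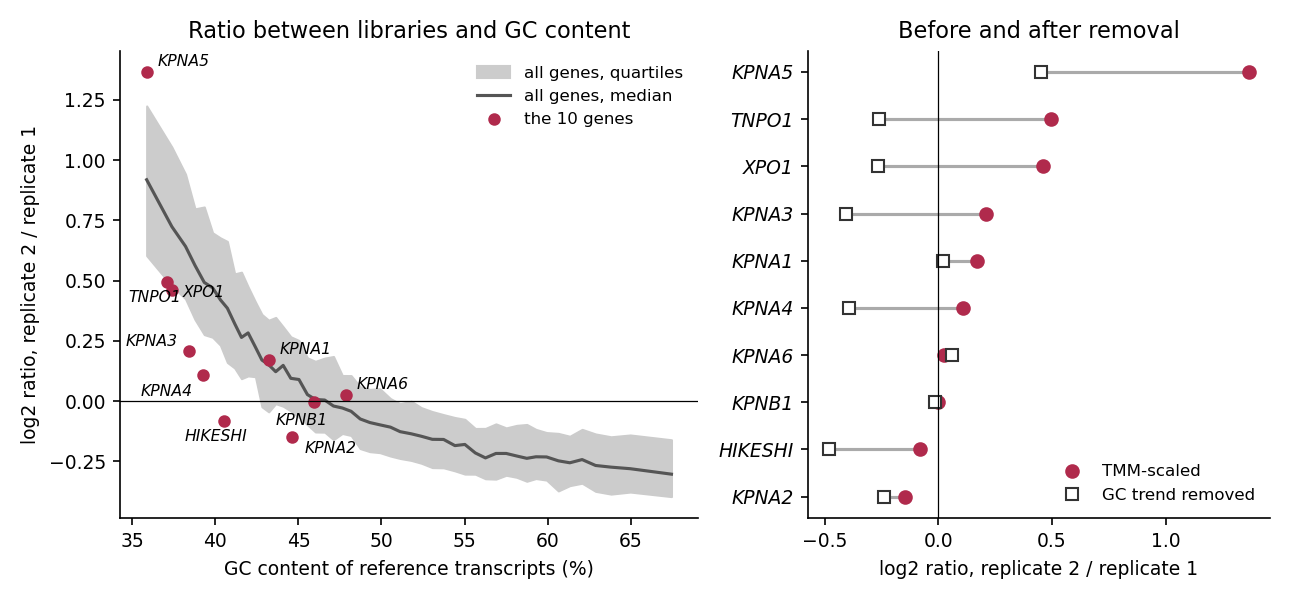
Left, log2 ratio of replicate 2 over replicate 1 against the GC content (%) of reference transcripts, with the median and quartiles of all genes in 50 classes (line and grey band) and the 10 genes as points. Right, the same ratios before (filled circles) and after (open squares) removal of the GC trend, where TNPO1, XPO1, KPNA3 and KPNA4 cross 0 and KPNA5 stays at 0.45.

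To place the 10 genes within their pathway, 71 nuclear transport genes were listed by role, of which 70 were matched. All matched genes but KPNA7 were detected, 69 in number, with 1 TPM or more in each library. The median TPM of the 70 matched genes, with KPNA7 included, was 59.3, against 18.6 for detected protein-coding genes. Between the libraries 57 of the 69 differed, 25 of them higher in replicate 2 and 32 higher in replicate 1, and after GC removal 47 differed, 9 and 38. Over all tested genes, 43.1% differed before removal and 26.8% after it, and 72.6% of those with 1000 or more counts did before it.

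In TPM, KPNB1 and TNPO1 were the highest of the 12 import receptors of the importin beta family. IPO4, TNPO2 and IPO9 came next, each with a mean between 91.0 and 91.7 TPM, which is below the value of TNPO1 in either library. With canonical lengths KPNB1 was still the highest, whereas TNPO1, at 42.5, came below IPO7, IPO4, IPO5, IPO9, TNPO2 and TNPO3, which were between 53.95 and 118. Among other import carriers, NUTF2, which returns Ran to the nucleus, had 225 and 198 TPM, above HIKESHI, and SNUPN, the carrier of spliceosomal RNA particles, had 18.0 and 17.1 TPM, below it. Of the 8 exportins, XPOT, which exports tRNA, was the highest in TPM with 197 and 248. XPO5, the exporter of microRNA precursors, had 124 and 119 TPM, and XPO1 came next. CSE1L, which recycles importin alpha, had 79.6 and 123 TPM, and the ranges of XPO5, XPO1 and CSE1L overlapped. XPO6, the exporter of actin, had 77.9 and 82.5 TPM. With canonical lengths CSE1L at 108, XPO1 at 104 and XPOT at 101 were close together, and XPO5 fell to 52.8, below XPO6 at 68.1.

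The Ran cycle included abundant transcripts. RAN itself had 1003 and 881 TPM, above KPNA2 in both libraries, from an estimated length of 709.6 and 721 bases against a canonical length of 2474. With canonical lengths RAN, at 356, was below KPNA2, at 382, and RANBP1, at 497, was above both. RANBP1, a cofactor of Ran, had 533 and 503 TPM, and RANBP3, RCC1 and RANGAP1 were between 77.0 and 169.9 TPM. The mRNA export genes NXF1, DDX19B, GLE1, RAE1 and NXT1 had means of 19.3 to 104 TPM. All 7 Ran cycle genes and all 5 mRNA export genes differed between the libraries, 6 and 5 of them higher in replicate 1, against 22.2% of all genes in that direction. Most of them are well counted, and among genes with 1000 or more counts 72.6% differed, with 29.6% higher in replicate 2. The rest of that 72.6% were higher in replicate 1, so the share in this direction was above 22.2% at such depth. These lists are high in GC, with medians of 54.7% and 51.1%. After GC removal 6 and 3 genes differed, 5 and 3 of them higher in replicate 1, against 13.3% of all genes in that direction. Of the 28 matched nucleoporins, 21 differed, which is near the share of well-counted genes, and 19 after GC removal. Over all tested genes, 26.8% differed after removal. The highest in TPM were TPR, NUP205, NUP93, NUP107 and NUP98. TPR, of the nuclear basket, had 113 and 347 TPM, so that its first place came from replicate 2 alone. With canonical lengths TPR, at 85.3, was below SEC13, at 142.

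**Figure D5:**
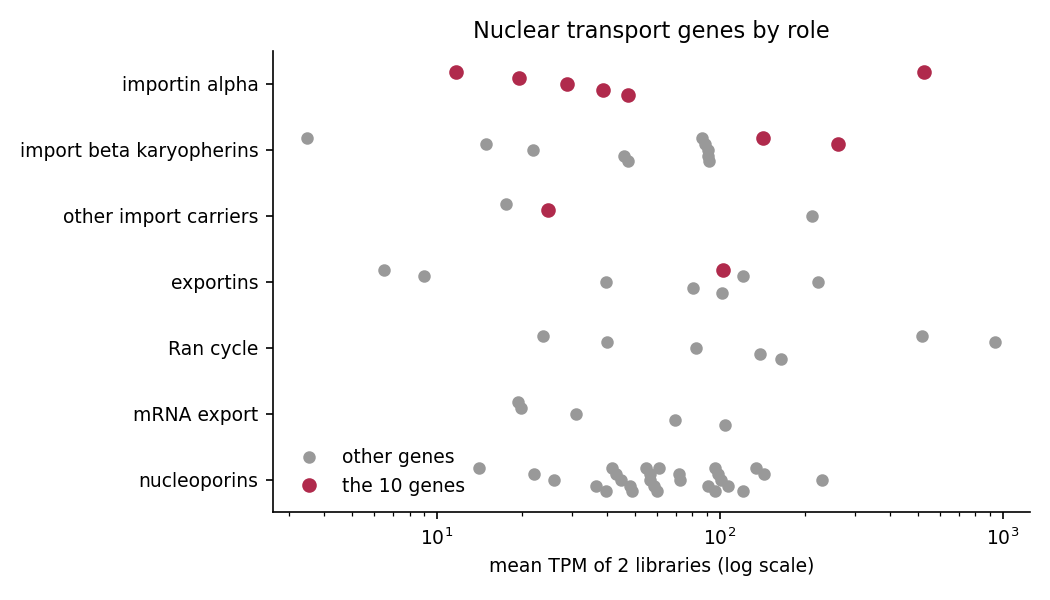
Mean TPM over 2 libraries, on a log axis, of 69 nuclear transport genes arranged by role, with the 10 genes in red; vertical offsets only separate points, and KPNA7, at 0, is left out. KPNA2 stands apart from the other importin alpha genes, and KPNB1 and TNPO1 are at the right end of the import receptors in TPM, a place that TNPO1 loses with canonical lengths.

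Hikeshi is a carrier of HSP70, and the HSP70 genes were set beside it. HSPA8, the constitutive HSP70, had 1220 and 1137 TPM, which was 47.0 and 48.3 times HIKESHI. HSPA1B, a stress-inducible HSP70, had 345 and 376 TPM, or 13.3 and 15.99 times HIKESHI. Both carried far more transcripts than the carrier in each library. HSPA1A was listed at 0.47 and 1.05 TPM, but it is nearly identical to HSPA1B, and its posterior SD was 85.8% and 43.3% of its count. How their reads were split is therefore uncertain. HSPA2 had 3.78 and 3.03 TPM, HSPA1L 0.54 and 0.52 TPM, and HSPA6, which is known as a strictly inducible gene, 0.04 and 0.06 TPM from 2 and 3 counts.

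By distance over log2(TPM + 1) in the 2 libraries, the protein-coding genes nearest to HIKESHI were SPIRE2 and LARS2, at distances of 0.00668 and 0.00903. Those nearest to KPNA2 were ATP5IF1, RANBP1 and GARS1, at 0.0161 to 0.0296. With 2 libraries of 1 condition, 16717 genes compared in this way are ordered by level alone.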

How the data were processed

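The 10 genes, the lists and the tests were chosen with earlier results of these data known. Per the labels, reads were trimmed with Trimmomatic 0.36, aligned with STAR 2.6.1c to hg19 (GRCh37.p13) and quantified with RSEM 1.3.1, while the methods name featureCounts. The authors deposited, for each gene, an expected count, in which RSEM divides reads that fit several genes, with posterior SDs, TPM credibility bounds and an isoform-weighted length. The TPM deposited by the authors are scaled to length and library, and the FPKM deposited by the authors to effective length and reads. A pooled table of the authors was not used for the results. The molecule is labelled genomic DNA, against poly(A)+ RNA in the protocol.

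Positions, GC content and transcripts came from GENCODE on GRCh37, of a later release than the study's Ensembl list, matching 96.1% of identifiers. Coordinates are 1-based. Expected counts were rounded for the exact binomial test, with library shares from TMM (edgeR 4.0.16) and a summed count of at least 10. Log2 ratios used a pseudocount of 0.5. The GC trend was the median in 50 classes. Canonical lengths are those of the reference's canonical transcript. The p-values give how unlikely the split of counts between these 2 libraries would be under counting noise alone. Variation between libraries was not estimated. The test was checked on simulated data that held only counting noise and planted changes. That check does not bear on other variation between libraries or on the GC trend. Named were the 10 genes; in each transport list the 5 of highest mean TPM and any with an absolute log2 ratio of at least 1 and 100 or more counts; all HSP70 genes; the 3 genes nearest to HIKESHI and to KPNA2; and pseudogenes named after a member with 10 or more counts. A gene that this rule names is not reported here. Python 3.11.15, R 4.3.3 and DESeq2 1.42.0, for alternative size factors, were also used.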

Additional observations from a re-analysis of the deposited data

How the results depend on the processing

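KPNA2 stood above KPNB1 by 1.00 on the log2 scale in TPM. The difference was 0.80 with canonical transcript lengths and turned to -0.84 in CPM, and it was 0.92 to 1.08 when either replicate was left out. The share of KPNA2 in importin alpha was 75.7% with canonical lengths, 45.8% in CPM, and 76.6% to 79.9% with a replicate left out. Canonical lengths were chosen as an alternative after seeing the data. Posterior mean TPM kept the order of the 10 genes. FPKM and a protein-coding denominator rescale each library by 1 factor, so they could not change the order within a library. Of the 7 genes that differed between the libraries, 1 was left, KPNA5, under edgeR's exact test with a biological coefficient of variation of 0.1. That coefficient was assumed and not estimated, and the gene higher in replicate 1 was then lost (0). No share over all genes was computed under it. With the GC trend removed, 1 was higher in replicate 2 and 6 in replicate 1, and TNPO1 (-0.26), XPO1 (-0.26), KPNA4 (-0.39) and KPNA3 (-0.41) turned sign. KPNB1 turned to 0.045 with library totals (adjusted p = 0.0080, exact binomial test) and to 0.0065 with DESeq2 size factors, and KPNA6 differed with library totals at 0.07 (adjusted p = 0.0234, exact binomial test). Adjusted p for KPNA5 was 1.15e-38 to 0.00046 over all alternatives of the test, and for HIKESHI 1.14e-05 to 0.946. No paired analysis was possible because both libraries belong to 1 group. Depth limits HIKESHI and KPNA5 most, with counting errors of 3.88% to 6.93% per library.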

Other observations

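Outside the 10 genes, TPR and RANBP2 had the largest log2 ratios between the libraries among nuclear transport genes before the GC trend was removed, and TPR alone kept that place after removal. TPR, a coiled-coil protein of the nuclear basket, had 113 TPM in replicate 1 and 347 TPM in replicate 2, a log2 ratio of 1.51 that was still 1.14 after the GC trend was removed. RANBP2, the large cytoplasmic filament nucleoporin, was singled out after its values were seen, with 15.1 and 32.3 TPM, a log2 ratio of 0.93, and 0.24 after removal. Both passed the exact binomial test before and after removal. KPNA5 was the only one of the 10 genes with a log2 ratio above 1.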
